A study of Mus musculus with 2 samples.

Results

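Intergenic loci are stretches of the genome where long reads gave transcript models that the authors assigned to no annotated gene. Such loci were read here in hippocampus of female B6CASTF1/J mice (F1 hybrids of C57BL/6J and CAST/EiJ) aged 14 days. The series holds 1 group of 2 libraries of total RNA, each made from a pool of 3 animals with 2 µg of RNA and with added ERCC and SIRV spike-in RNA, and it has no second condition. The members were taken as all transcript models whose gene was deposited with the status Intergenic, 6343 models in replicate 1 and 4533 in replicate 2. Models that overlapped on the same strand, within or between libraries, were merged into 1 locus. The merging gave 8840 intergenic loci among 55204 features with reads in all, beside 27322 antisense loci merged in the same way and annotated genes. Replicate 1 covered 6138 of the loci and replicate 2 covered 4424, and 1722 were read in both. The span of a gene on the same strand was still overlapped by 477 loci, of which 377 crossed its 3′ end, 84 crossed its 5′ end, 10 covered a whole gene and 6 did more than 1 of these. The tissue is labelled as a layer of hippocampus, and the label does not say which layer or how it was taken. Bulk tissue and not single cells was sampled, and each library averages its pooled animals. One label field numbers different animals for each library, and another repeats the numbers of replicate 1 for both, so p-values measure the difference between these libraries only.

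A transcript outside annotated genes can be a separate RNA gene, often a long noncoding RNA with a cap, a poly(A) tail and introns. It can also be the far end of a known gene, where transcription ran on to a poly(A) site beyond the annotated end, as is common for the long 3′ ends of neuronal messenger RNAs. Promoters of many genes also fire in the opposite direction and give short unstable RNAs, and interspersed repeats such as the B2 element, a short repeat transcribed by RNA polymerase III, carry their own promoter and end in an A-rich tail. RNA of each of these kinds can be placed outside annotated genes.

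Intergenic models held 15725 of 1168366 reads in replicate 1, or 1.35% (95% Clopper-Pearson interval 1.33 to 1.37), and 8979 of 888704 reads in replicate 2, or 1.01% (0.990 to 1.03). The intervals cover counting error only, since each was computed within 1 library and holds no variation between pools. Reads carry no molecular identifier, so copies of the same molecule were not told apart. The mean share was 1.18% ± 0.237 (SD, n = 2), and the share in replicate 1 was the higher. One read was worth 0.856 CPM (reads scaled to a fixed library total) in replicate 1 and 1.13 CPM in replicate 2. A count of 0 allows up to 3 reads, which is 2.57 CPM in replicate 1 and 3.38 CPM in replicate 2. The markers of dentate granule cells, CA1, CA2/CA3, excitatory neurons, astrocytes and microglia were all read in both libraries. The 5 markers of choroid plexus, the secretory tissue of the ventricles, summed to 4643 CPM in replicate 1 and to 6.75 CPM in replicate 2. Kcnj13, Clic6 and Folr1 of that list were at 0 reads in replicate 2. In bulk tissue, fewer cells of a type and less RNA per cell cannot be told apart.

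Most intergenic loci rested on 1 exon and on few reads. There were 613 spliced loci (at least 1 model of 2 or more exons) and 8227 single-exon loci, and 5915 of the 8840 loci, or 66.9%, had 1 read. Among the loci read in both libraries, 125 were spliced and 1597 were single-exon. The spliced share was 6.93% of all loci and 7.26% of the loci read in both. Antisense loci had a spliced share of 7.22% in all and 11.1% among those read in both. Spliced loci carried 7.78% of the intergenic reads of replicate 1 (95% interval 7.37 to 8.21) and 9.49% of those of replicate 2 (8.89 to 10.1). The mean was 8.64% ± 1.21 (SD, n = 2). These shares include reads of single-exon models merged into the spliced loci. Spliced models themselves held 657 of the 15725 intergenic reads of replicate 1 and 380 of the 8979 of replicate 2.

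The single-exon loci had a sharp length class. Of the 8227 single-exon loci, 2415 (29.4%) were at least 160 and under 200 nt long, and among the single-exon loci read in both libraries the class held 684 of 1597 (42.8%). These short loci took 9067 of the 24704 intergenic reads, or 36.7%. The commonest length among the shared short loci was 178 nt, with 109 loci at that length. Antisense single-exon loci also had a peak there, but the class made up 5.91% of them, and 6.03% of the 1-exon models given to annotated genes. The 20 nt of length just below the class held 402 single-exon loci and the 20 nt just above it held 222.

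**Figure D1:**
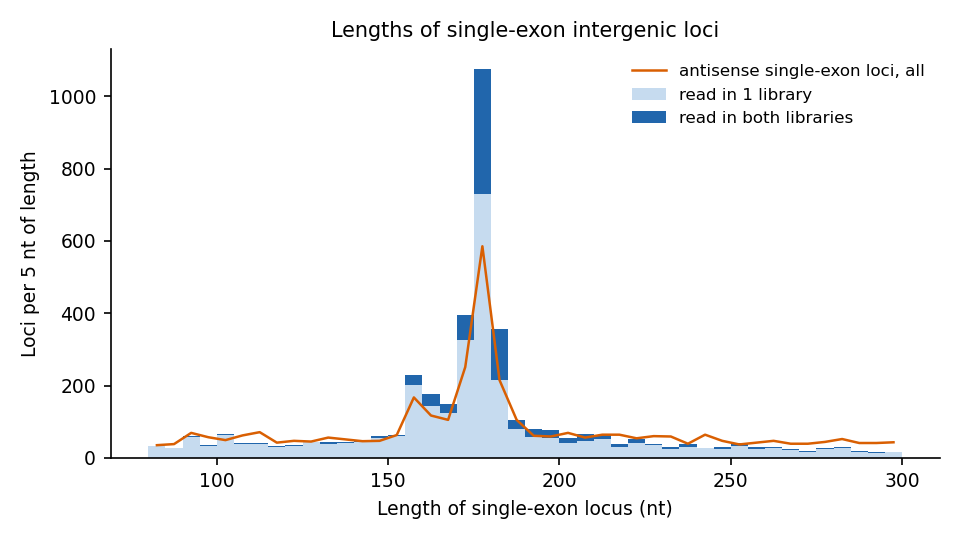
Number of single-exon intergenic loci per 5 nt of length (x axis, nt, loci of 80 to under 300 nt), stacked as loci read in 1 library (light) and in both libraries (dark), with all antisense single-exon loci as a line. The 2415 loci of 160 to 200 nt form the peak, and the commonest length among shared loci of the class was 178 nt.

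The sequences of a few short loci are shown because they show what the length class can hold. No genome sequence of the build was used here, so sequence could be read only where a RefSeq promoter window (GRCm38.p6, the build named mm10 in the files, 250 bases before to 50 after a gene start) happened to cover a locus. Of 20 single-exon loci of 140 to 230 nt with at least 30 bases covered, 6 held the 12-base word GAGATGGCTCAG on their own strand. It was the word found in the most of these loci, the next being in 4. The word was searched for after the sequences were seen, and it lies in the opening of the B2 repeat's consensus. Of all 32851 promoter windows, 0.405% held it on either strand. Capitals mark this word and the last AATAAA, the canonical poly(A) signal, in the last 50 bases of the locus:
chr9:72779461-72779642 (-), 2 and 0 reads in replicates 1 and 2: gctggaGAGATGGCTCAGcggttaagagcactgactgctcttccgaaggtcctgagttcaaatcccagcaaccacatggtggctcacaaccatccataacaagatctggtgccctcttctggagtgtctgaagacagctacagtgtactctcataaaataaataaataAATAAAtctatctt
chr10:59266955-59267135 (+), 1 and 0 reads: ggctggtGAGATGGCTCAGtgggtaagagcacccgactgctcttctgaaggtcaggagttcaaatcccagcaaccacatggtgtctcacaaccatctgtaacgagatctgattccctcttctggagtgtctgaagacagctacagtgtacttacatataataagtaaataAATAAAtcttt
chr6:140681576-140681738 (+), 1 and 0 reads: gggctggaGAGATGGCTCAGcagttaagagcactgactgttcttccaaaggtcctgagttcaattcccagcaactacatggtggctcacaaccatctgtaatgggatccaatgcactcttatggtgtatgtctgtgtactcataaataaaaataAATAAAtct
chr19:57404095-57404272 (-), 3 and 2 reads, first 58 bases: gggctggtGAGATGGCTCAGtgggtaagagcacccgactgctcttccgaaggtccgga
chr5:93221345-93221523 (+), 2 and 3 reads, last 127 bases: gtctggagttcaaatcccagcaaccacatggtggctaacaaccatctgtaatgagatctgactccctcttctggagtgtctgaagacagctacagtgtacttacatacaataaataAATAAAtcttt
In these 3 loci covered whole, the word began at base 7, 8 and 9 of the locus. In another that held it, chr8:111933881-111934094 (+) with 0 and 1 reads, the word began at base 51, and that locus started on the first base of the opposite gene Tmem231. The fourth also held the word near its start, and the fifth was covered only past the place of the word.

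Other short single-exon loci also lay at the promoter of a gene on the opposite strand and ran away from it. The examples below do not hold the word, and their last AATAAA is in capitals:
chr7:41499890-41500087 (+), at the start of AW146154, 1 and 2 reads: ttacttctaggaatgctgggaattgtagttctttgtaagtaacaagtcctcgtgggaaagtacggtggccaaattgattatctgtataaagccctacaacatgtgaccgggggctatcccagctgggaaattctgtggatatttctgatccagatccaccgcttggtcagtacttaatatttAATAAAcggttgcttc
chr1:161131511-161131689 (+), at the start of Klhl20, 1 and 0 reads: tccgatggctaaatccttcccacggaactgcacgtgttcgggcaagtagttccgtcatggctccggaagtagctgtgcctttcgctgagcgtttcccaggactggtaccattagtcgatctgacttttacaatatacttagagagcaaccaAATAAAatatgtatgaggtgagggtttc
chr4:132329538-132329701 (+), at the start of Trnau1ap, 1 and 0 reads: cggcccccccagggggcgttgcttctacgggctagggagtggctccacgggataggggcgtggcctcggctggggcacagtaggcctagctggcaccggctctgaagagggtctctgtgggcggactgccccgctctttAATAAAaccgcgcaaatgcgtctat
chr3:105053146-105053309 (+), at the start of Cttnbp2nl, 0 and 1 reads: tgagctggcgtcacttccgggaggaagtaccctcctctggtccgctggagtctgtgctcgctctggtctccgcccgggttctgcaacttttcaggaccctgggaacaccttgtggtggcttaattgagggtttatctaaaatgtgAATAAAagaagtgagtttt
Of the 10 loci of 160 to 200 nt whose last 50 bases were covered, 9 held AATAAA or ATTAAA there, against 6 of 37 other single-exon loci. Either was held by 1.81% of promoter windows over their last 50 bases (own strand only). Those bases follow a gene start and are not the 3′ ends of loci, so the 1.81% is not like for like. The 9 include the loci printed above at chr9:72779461, chr10:59266955, chr6:140681576 and chr5:93221345. These resemble one another in sequence and are not independent cases. The covered loci are the few that a promoter window happens to reach and are no sample of the 2415. Of all 2415, 53 (2.19%) started within 1000 nt of the start of an opposite-strand gene, 10 of them on its first base. Among covered single-exon loci at such a start, those at Med17 and Gtf2a2 held neither signal and are not printed. A match of letters is a description and shows no signal in use.

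Recurrence between the libraries rose with the number of reads. Of the 300 spliced loci with 1 read in replicate 1, 54 were also read in replicate 2, and of those with 10 or more reads 87.5% were (14 of 16). Of the 160 to 200 nt loci of replicate 1, 17.9% with 1 read and 98.0% with 10 or more reads (99 of 101) were read in replicate 2. The other single-exon loci stood at 12.7% and 88.0% (81 of 92). From the side of replicate 2, 49.5% of the short loci with 1 read were also read in replicate 1, against 26.9% of spliced and 20.9% of other single-exon loci with 1 read. The shared loci held 60.2% of the intergenic reads of replicate 1 and 62.3% of those of replicate 2.

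**Figure D2:**
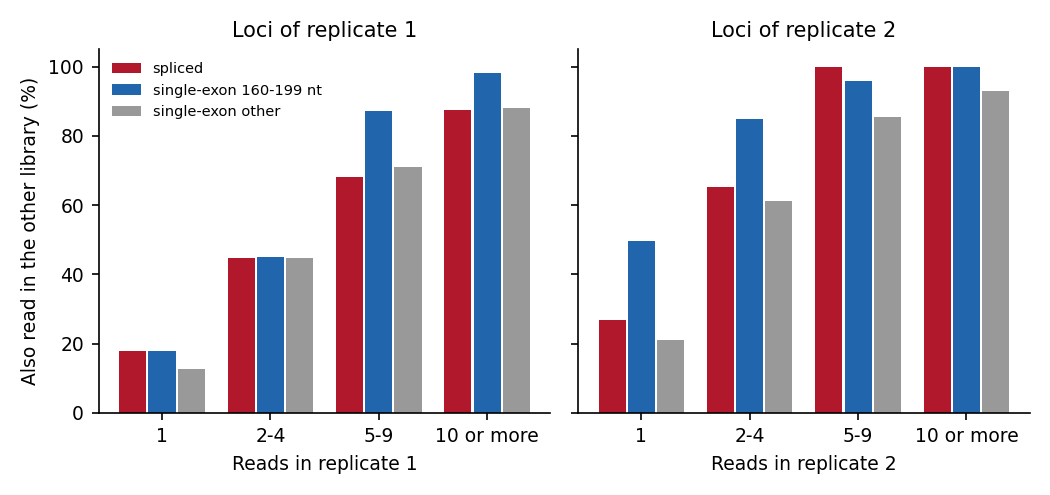
Share of intergenic loci of each library that was also read in the other library (y axis, %), by the number of reads in the first library (x axis), for spliced, 160 to 200 nt single-exon and other single-exon loci. The share lies between 12.7% and 49.5% at 1 read and is at least 87.5% at 10 or more.

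Part of the loci of 1 library were present in the other under another name. Of 7118 loci read as intergenic in 1 library, 355 (4.99%) were overlapped in the other library by a same-strand model with a different status, 177 with an annotated gene and 178 with an antisense name only. The overlap had to cover at least 50% of the exon bases of the shorter of locus and model. Among the 18 loci of 1 library with at least 10 reads, 12 were overlapped in this way. With these names allowed, 2077 loci, or 23.5%, had reads in both libraries.

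Position was taken from annotated gene ends of GENCODE M21. No gene on either strand overlapped 7753 of the 8840 loci, and their median distance to the nearest gene was 5892 nt, with quartiles of 2045 and 18195 nt. Spliced loci lay farther out, at a median of 12138 nt, than single-exon loci at 5603 nt. Among the loci read in both libraries the medians were 7661 nt for 91 spliced and 4329 nt for 1388 single-exon loci. The single-exon loci of 160 to 200 nt read in both lay at 6136 nt and the longer or shorter ones at 2819 nt. The nearest gene of those short shared loci was met in the 4 possible orientations about evenly: 171 downstream of a gene on the same strand, 162 upstream of one, 170 head to head and 175 tail to tail with an opposite gene. Of the other shared single-exon loci, 256 of 710 (36.1%) were tail to tail and 109 (15.4%) head to head.

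Shared spliced loci stood at gene starts more often than shared single-exon loci, as counts without a test. The first base of the locus lay within 1000 nt of the first base of an opposite-strand gene in 26 of 125 (20.8%) shared spliced loci and in 98 of 1597 (6.14%) shared single-exon loci. In 20 of those 26, and in 71 of those 98, the locus began on the very first base of that gene. A same-strand RefSeq gene overlapped 48 of 125 (38.4%) shared spliced loci and 129 of 1597 (8.08%) shared single-exon loci. For 38 of the 48 and 39 of the 129, at least 1 such RefSeq gene had no counterpart in GENCODE M21. A strand could be assigned to 54.1% of the RefSeq genes, so these counts are minimums. Overlap was taken over the whole span, introns included, with a median of 5894 nt for shared spliced and 215 nt for shared single-exon loci. The part of span in the RefSeq contrast was not tested.

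A RefSeq start on the same strand lay within 100 nt of the first base of 13 of the 125 shared spliced loci and of 4 of the 1597 single-exon ones. The windows of 3 of the 13 are printed because an independent annotation starts there. They are credited to RefSeq (GRCm38.p6), and capitals mark the bases from the first base of the locus onward:
Gm38396, chr17:17179055-17179354 (+): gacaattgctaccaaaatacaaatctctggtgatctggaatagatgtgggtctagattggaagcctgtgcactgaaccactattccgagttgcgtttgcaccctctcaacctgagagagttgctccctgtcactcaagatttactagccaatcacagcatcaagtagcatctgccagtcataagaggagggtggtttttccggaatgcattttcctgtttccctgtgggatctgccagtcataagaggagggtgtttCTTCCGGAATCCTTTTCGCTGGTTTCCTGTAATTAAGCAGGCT
Gm34267, chr10:22058605-22058904 (-): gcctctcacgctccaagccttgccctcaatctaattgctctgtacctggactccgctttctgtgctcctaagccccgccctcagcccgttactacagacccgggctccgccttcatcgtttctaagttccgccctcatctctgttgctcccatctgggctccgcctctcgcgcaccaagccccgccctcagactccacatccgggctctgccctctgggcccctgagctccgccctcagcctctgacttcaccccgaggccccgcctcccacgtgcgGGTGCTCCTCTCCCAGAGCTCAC
Gm38987, chr7:34812458-34812757 (+): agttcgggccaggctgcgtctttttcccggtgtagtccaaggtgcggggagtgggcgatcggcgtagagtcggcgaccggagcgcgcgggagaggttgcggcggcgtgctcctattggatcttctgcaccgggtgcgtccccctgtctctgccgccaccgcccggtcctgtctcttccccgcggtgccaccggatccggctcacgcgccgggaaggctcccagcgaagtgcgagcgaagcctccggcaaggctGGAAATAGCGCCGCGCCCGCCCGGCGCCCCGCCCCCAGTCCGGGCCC
The locus chr17:17179312-17206387 (+) began 7 nt inside Gm38396, had 4 exons with 3 introns read in both libraries, and was read 6 times in replicate 1 and 3 times in replicate 2. The locus chr10:22054861-22058627 (-) began 27 nt inside Gm34267, a long noncoding RNA gene of RefSeq, and had 2 and 6 reads with 2 introns in both. The locus chr7:34812711-34844522 (+) began 3 nt inside Gm38987 and had 2 reads in each library with 1 intron in both. The windows of the 13 held 0 to 40 CG dinucleotides with a median of 9, against a median of 7 over all promoter windows, and the 3 printed held 5, 18 and 40. None of the 3 gene symbols was in GENCODE M21.

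Spliced loci were mostly 2-exon loci with a few reads. Of the 613, 362 had 2 exons at most in a model, 251 had 3 or more and 61 had 5 or more. Over the 780 spliced models, the 1374 introns had a median of 2211 nt (quartiles 593 and 7502 nt), and 57 introns were under 100 nt. Among the 125 spliced loci read in both libraries, 52 (41.6%) had at least 1 intron with the same first and last base in both. Over these 125 loci, 460 of 1409 reads (32.6%) were on spliced models, and without the best-read locus 445 of 912 (48.8%) were. In 83 of the 125, and in 559 of all 613 spliced loci, at least 50% of the reads were on spliced models.

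The 10 shared spliced loci with the most reads showed both patterns: 5 had an identical intron in both libraries, and 5 had at least 50% of their reads on spliced models. The leader, chr4:133096112-133101553 (+), lay 6966 nt past the end of the long noncoding gene Gm26615 and was read 238 times in replicate 1 and 259 times in replicate 2. Of those, 15 reads in all were spliced, and 1 intron, from base 133096505 to 133100641 (4137 nt), was read in both, with 3 and 2 reads. Nearly all its reads came from single-exon models, and these differed between the libraries. In replicate 1, 184 reads were on a model of 256 nt and 44 on one of 5050 nt, whereas in replicate 2, 254 were on a model of 5256 nt, so the summed counts join unlike models.

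The locus chr5:139485054-139512000 (+) had all of its 52 reads on spliced models. An intron of 26788 nt took 39 of the 40 reads of replicate 1 and each of the 12 reads of replicate 2. Its first base lay 505 nt from the start of Zfand2a, a zinc-finger gene transcribed the other way. In CPM it stood at 34.2 and 13.5, a log2 ratio of replicate 2 to replicate 1 of -1.28 with an adjusted p of 0.0344 in the exact binomial test of the read split.

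The locus chr5:30223093-30232581 (-) began on the first base of Selenoi, an enzyme of ethanolamine phospholipid synthesis on the opposite strand. It had 36 and 7 reads, 40 of them spliced, over 2 introns read in both. The intron of 2448 nt had 24 and 4 reads and the intron of 5028 nt had 11 and 2 reads. At chr12:85524572-85525380 (+), upstream of Gm32296, all 20 reads were spliced, 12 in replicate 1 and 8 in replicate 2, and an intron of 287 nt was read 9 and 8 times. The introns named so far were read in each pool. Another intron of each locus was read in replicate 1 only, of 2451 nt with 1 read at chr5 and of 336 nt with 3 reads at chr12. The chr5 locus had a log2 ratio of -1.84 (adjusted p = 0.00534 in the exact binomial test).

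In 4 others of the 10, the spliced reads were 1 or 2. At chr2:174935150-175142012 (-), whose span overlapped the annotated same-strand gene Gm14399, 2 of 76 reads were spliced. Most of the 49 and 27 reads lay in a short single-exon model inside an intron of the 6-exon model, which had 1 read. At chr15:8445415-8500343 (-), 952 nt before Nipbl, which encodes a loader of cohesin, 1 of 57 reads was spliced. At chr8:117459430-117461503 (+), past the end of Cmip, 1 of 36 was, with 18 reads in each library. At chr4:12234509-12238021 (+), past the pseudogene Gm11847, 2 of 19 were, over a gap of 48 nt.

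A pair of the 10 may be copies of one another and is uncertain. The locus chr4:42669940-42830361 (+) and the scaffold locus chr4_JH584294_random:18041-180170 (+) both had an intron of 8491 nt and an intron of 35649 nt. The 8491-nt intron had 9 reads in replicate 1 and 0 in replicate 2 on chromosome 4, and 3 and 10 on the scaffold, or 12 and 10 over both. Over the whole locus the reads were 16 and 3 on chromosome 4 and 11 and 15 on the scaffold. The chromosome 4 locus overlapped the annotated gene 4930578G10Rik on its own strand, and reads inside it under any name were 18 and 7. Reads of near-identical copies can be split between them by the authors' alignment, so neither count stands alone.

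The 5 shared loci with the most exons reached 10 exons. The 10-exon model lay at chr4:124522928-124657169 (-), 362 nt from the start of Pou3f1, a POU-domain transcription factor gene used here as a CA1 marker. The span of this locus overlapped the annotated gene Gm2164 on its own strand, and the locus had 10 and 2 reads. Its intergenic spliced reads were all in replicate 1, and the 2 reads of replicate 2 were on a single-exon model. Counting every same-strand read inside the locus, under any name, gave 10 and 9 reads, and the log2 ratio of replicate 2 to replicate 1 went from -1.56 to 0.22, with no call under either count (adjusted p = 0.315 and 0.972 in the exact binomial test). The locus chr1:72936401-72952742 (+) had up to 8 exons on 3 and 4 reads, and 7 of its introns were read in both libraries, at 1 to 4 reads each. The locus chr2:147435338-147493284 (+) had 7 exons in a single read of replicate 2 and 2 exons in the 2 reads of replicate 1, with no intron in common.

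The 10 shared single-exon loci with the most reads included 5 of the 160 to 200 nt class. The largest, chr15:103619061-103619240 (+), was 180 nt long with 341 reads (292 CPM) and 189 reads (213 CPM), and its nearest gene, Gm49272, lay 30552 nt away. The locus chr1:171300693-171300876 (+), 184 nt, had 296 and 112 reads and lay 4211 nt from Rpl27-ps1. The locus chr1:132824799-132824984 (-), 186 nt, had 156 and 70 reads. The other 2, chr2:164866185-164866367 (-), upstream of the phospholipid transfer gene Pltp, and chr3:95924915-95925089 (+), upstream of Anp32e, a histone chaperone gene, had 128 and 52 and 108 and 44 reads. All 5 had the higher CPM in replicate 1.

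The other 5 were longer. The locus chr7:28187294-28189073 (-), 1780 nt, ran opposite to Dyrk1b, a protein kinase gene, and ended on the last base of that gene, with 138 and 107 reads. The locus chr2:180719323-180721069 (-), 1747 nt, ended 590 nt from the end of Gid8 and had 66 and 56 reads. The CPM values of both were close between the libraries, at 118 and 120 for the first and 56.5 and 63.0 for the second. The remaining 3 began on the end of a gene and are described next.

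Loci downstream of a gene, defined as those starting on or within 5000 nt past the end of a same-strand gene with no other gene of that strand between, numbered 1727 and held 5367 reads. Of these, 343 were read in both libraries, 330 single-exon and 13 spliced. The gene was protein-coding for 1161 of them, a processed pseudogene for 230 and a long intergenic RNA gene for 110. The gene itself had reads in 1273 cases (73.7%), and in 1077 of 1161 (92.8%) where it was protein-coding. The locus had more reads than the gene in 127 of those 1161, and in 171 of the 230 with a processed pseudogene.

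The starts were unevenly placed. A start on the very last base of the gene was seen in 377 loci, a start 1 to 500 nt past it in 8, and a start farther out, up to 1000 nt, in 259. Starts near the first base of an opposite gene numbered 442 on that base, 20 at 1 to 500 nt from it and 190 farther out, up to 1000 nt. The placement is that of the deposited models, and the rule for model ends was not given in the sources used here. Of the 377 loci on a gene's last base, 163 (43.2%) overlapped the RefSeq span of that same gene, against 120 of 1350 (8.89%) that started past it. Where the gene was protein-coding the shares were 155 of 255 (60.8%) and 11.6% of 906. Overlap by 1 base was enough, and a RefSeq gene with the same end as in GENCODE M21 already shares the last base. The shares are therefore not like for like. Only for the overlapped loci that started past the gene end does RefSeq reach farther than GENCODE M21. For those on the last base a longer RefSeq gene was not shown.

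**Figure D3:**
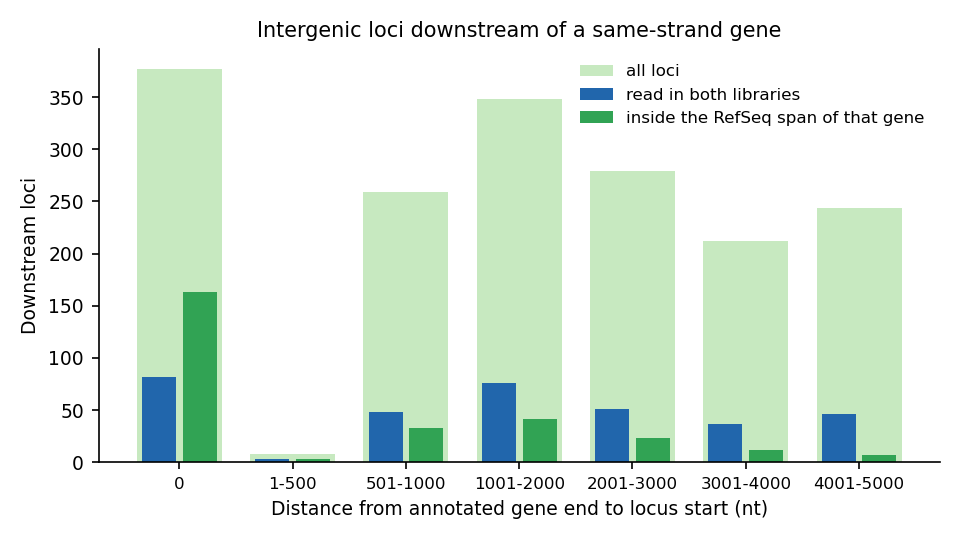
Number of intergenic loci downstream of a same-strand gene (y axis) by distance from the annotated gene end to the start of the locus (x axis, nt), with the loci read in both libraries and those overlapped by the RefSeq span of that gene (labelled as inside it) as narrow bars. The 377 loci at distance 0 stand beside 8 at 1 to 500 nt. Of the 377, 163 overlap the RefSeq span, for which 1 shared base is enough.

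Of the 10 downstream loci with the most reads among those in both libraries, 5 began on the last base of the gene. At chr13:54383917-54388480 (+), 4564 nt began on the end of Cplx2, which encodes complexin 2, a regulator of synaptic vesicle fusion. The locus was read 93 times in replicate 1 and 69 times in replicate 2, at 79.6 and 77.6 CPM. The models named Cplx2 had 6 reads in replicate 1 against 292 in replicate 2, so the locus was level between the libraries and the reads named for its gene were not. At chr16:22464609-22468461 (-), 3853 nt began on the end of Dgkg, a diacylglycerol kinase gene, with 24 and 21 reads beside 85 and 83 for the gene. At chr12:86693599-86695684 (+), 1508 nt past the end of Vash1, 38 and 30 reads stood beside 4 and 6 for that gene, and the RefSeq span of Vash1 overlapped the locus.

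At chr13:51423388-51426497 (-), 4544 nt past Shc3, a neuronal adaptor gene, the locus had 29 and 33 reads and Shc3 7 and 6. The locus also ended 591 nt from the end of S1pr3, a receptor gene on the opposite strand. At chr7:97408899-97409639 (-), 3299 nt past Thrsp, there were 31 and 9 reads. A pair of loci began on the end of a processed pseudogene, chr12:24637993-24638669 (-) at Gm6969 with 67 and 88 reads and chr4:69925199-69925630 (-) at Gm11223 with 64 and 43. Gm6969 itself had 63 and 0 reads and Gm11223 had 4 and 5. One began on the end of Gm42517 (chr5:108365556-108366073 (-), 69 and 49 reads). The last 2, chr9:67756420-67757599 (-) past M5C1000I18Rik and chr12:109581013-109581675 (-) past Mir3544, had 51 and 38 and 37 and 18 reads, the second of them tail to tail with Mir493 at 698 nt. The RefSeq span of that gene overlapped 4 of the 10, those at Cplx2, Dgkg, Vash1 and Gm42517. All but the locus at Vash1 began on the gene's last base, where a single shared base is enough. In each of the 10 both libraries had at least 9 reads.

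The read split between the libraries was tested for every feature with at least 10 reads over both, by a two-sided exact binomial test that took the 2 library totals as the expected split. P-values were adjusted by Benjamini and Hochberg's method over all 14614 features. Only 314 of the 8840 intergenic loci reached 10 reads. The test compares these 2 libraries, each a pool, and no conditions. Of the 314, 41 passed at an adjusted p of 0.05, or 13.1%, against 10.2% of all features. The split was 36 higher in replicate 1, where the background was 5.15% of features, and 5 higher in replicate 2, where it was 5.05%. The median log2 ratio of CPM (replicate 2 to replicate 1, with 1 CPM added) was -0.66 over the 314 loci and 0.03 over all features.

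**Figure D4:**
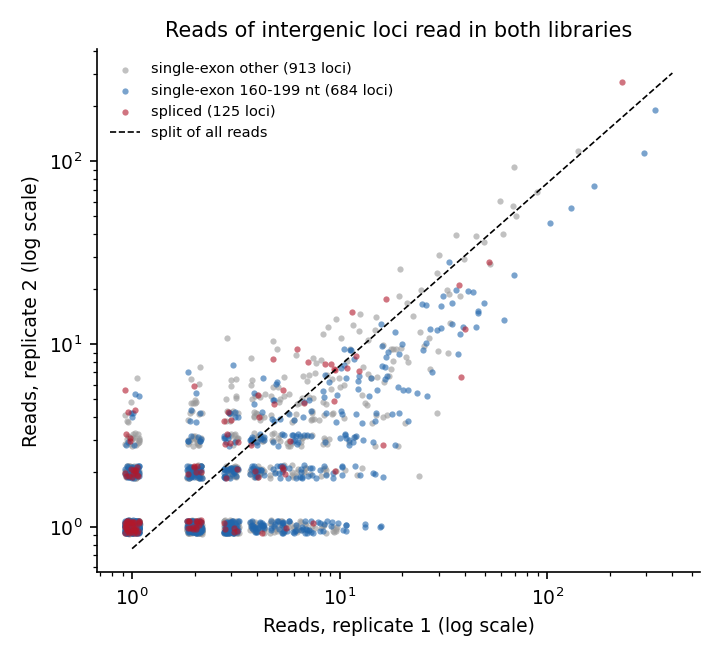
Reads of the 1722 intergenic loci read in both libraries, replicate 1 on the x axis and replicate 2 on the y axis, both on a log scale with a small random shift to separate equal values; the dashed line is the split of all reads. Many of the 684 loci of 160 to 200 nt lie below the line, and the spliced locus with 238 and 259 reads lies above it.

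The size of the difference varied with length, in no single direction for intergenic loci. The 131 tested loci of 160 to 200 nt had a median log2 ratio of -0.92, 121 of them were below 0, and 17 passed, all higher in replicate 1. The 25 tested spliced loci had a median of -0.08, and 4 of the 5 that passed were higher in replicate 1. The 48 tested intergenic loci of 2000 to under 4000 nt had a median of 0.05. The 36 of 4000 nt or more were at -0.36, with 5 called higher in replicate 1 and 2 in replicate 2, and the 11 under 160 nt were at -0.17 with 1 called, higher in replicate 2. Annotated genes and antisense loci of the short class had medians of -0.70 over 27 genes and -0.84 over 81 loci, so these were below 0 as well. Length was the genomic span, introns included, for loci, and the read-weighted mean model length for annotated genes. The 2 measures are not like for like where loci are spliced. Of the 36 intergenic loci of 4000 nt or more, 19 were single-exon, with a median of -0.42. Annotated genes of 2000 to under 4000 nt had a median of 0.25. Choroid plexus markers also differed between these libraries (values above). The part of either in the splits was not tested.

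**Figure D5:**
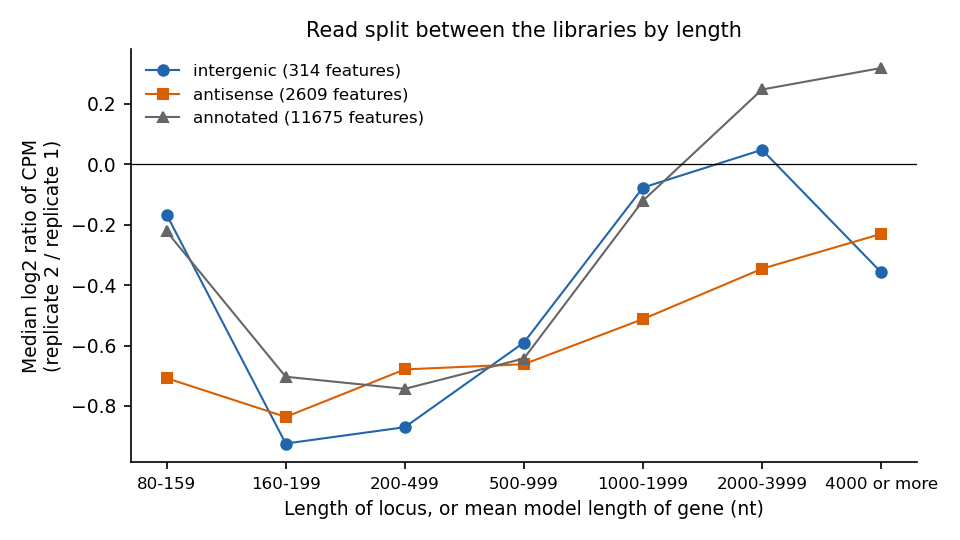
Median log2 ratio of CPM, replicate 2 to replicate 1 (y axis), of features with at least 10 reads and 80 nt by length in nt (x axis), for intergenic loci, antisense loci and annotated genes; no error bars are drawn. All 3 lines are at or below -0.70 at 160 to 200 nt, and the intergenic line is at 0.05 at 2000 to under 4000 nt. Length is the genomic span, introns included, for loci and the read-weighted mean model length for genes.

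The best-read short loci passed with differences of about 1 log2 unit or less. The locus chr1:171300693-171300876 (+) had a log2 ratio of -1.002 (adjusted p = 6.12e-09 in the exact binomial test) and chr15:103619061-103619240 (+) one of -0.45 (adjusted p = 0.00759). Among the loci higher in replicate 2, the spliced locus chr4:133096112-133101553 (+) stood at 0.51 (adjusted p = 0.00185) and the locus on the end of Gm6969 at 0.78 (adjusted p = 0.0126). With the reads of Gm6969 added, the latter had 130 and 88 reads, so that replicate 2 was no longer the higher in CPM. This sum was not tested. The spliced locus sums unlike models, as given above.

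The largest differences were loci with 0 reads in a library, and several had reads there under another name. The locus chr11:100457022-100461670 (+) began on the last base of Klhl10 and was read 223 times in replicate 2 and not in replicate 1, at least 97.7-fold higher in replicate 2 when 3 reads are taken as the floor. In replicate 1 a model named Klhl10 over the same stretch held 484 reads, and with those counted the log2 ratio was -0.72 (adjusted p = 2.33e-08 in the exact binomial test), so the direction turned. The locus chr2:157547368-157555583 (+), 4495 nt before Nnat, an imprinted gene, and ending 779 nt from the end of Blcap, had 33 and 0 reads. Replicate 2 had 51 reads there under an antisense name, which gave a log2 ratio of 0.997 (adjusted p = 0.0184).

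Of the next loci higher in replicate 1, 3 also lost their call when models overlapping by at least 50% were counted under any name, a setting chosen after seeing the data. All 3 kept it when only reads lying inside the locus were counted under any name (adjusted p = 0.00997, 0.000273 and 0.000697 in the order below, exact binomial test). The spliced locus chr6:38430256-38432803 (+), upstream of Ubn2, had 24 and 0 reads, and 24 and 6 with overlapping models (adjusted p = 0.0799). The locus chr15:86212657-86214459 (-), opposite to Tbc1d22a, had 22 and 0 reads, and 24 and 17 with overlapping models (adjusted p = 0.997). The locus chr5:138363272-138363719 (-), opposite to Gm10874, had 19 and 0 reads, and 19 and 11 with overlapping models (adjusted p = 0.846).

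For 3 of the loci with the largest differences, no reads under another name were found. Other loci of 1 library also had none and are not described here, among them chr15:74093183-74093686 (-) with 16 and 0 reads. The locus chr12:10898572-10898986 (-), on the end of the pseudogene Pgk1-rs7, had 0 and 33 reads, at least 14.5-fold higher in replicate 2. The locus chr17:5816057-5816200 (-), on the end of the pseudogene Gm10231, had 0 and 25 reads, at least 11.0-fold higher. The locus chrX:29563207-29564014 (-), on the end of the pseudogene Gm15432, had 28 and 0 reads, at least 7.10-fold higher in replicate 1. All 3 genes are processed pseudogenes, whose reads can be shared with the parent gene by the authors' alignment, so these counts are uncertain. The first of them, Pgk1-rs7, itself had 109 and 35 reads, Gm10231 had 108 and 27, and Gm15432 had 26 and 25.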

How the data were processed

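Long reads of 2 libraries of 1 group were analysed. Per the file headers and notes deposited with them, the authors aligned reads to mm10 and deposited raw read counts per transcript model, GENCODE M21 models plus models made from each library's reads with TALON; the aligner, versions and any read filter were not given in the sources used here. Models of 1 read are included. Gene spans were read from GENCODE M21 (55536 genes), since deposited gene ends differed between libraries.

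From the deposited counts, intergenic and antisense models were merged by same-strand span overlap, and CPM was computed over all reads. The read split was tested by exact binomial tests, which were checked on simulated data (14614 features: 22.0% of 2-fold and 62.0% of 4-fold changes recovered, 4 unchanged called). The simulation drew counting error only, with no variation between pools, so it gives no rate of false calls for these libraries. edgeR's quasi-likelihood test has no residual degrees of freedom here; edgeR 4.0.16 and DESeq2 1.42.0 gave alternative scalings. Python 3.11.15, pandas 2.3.3, scipy 1.17.1, matplotlib 3.10.9 and R 4.3.3 were used.

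Named loci are the 10 shared spliced, single-exon and downstream loci with most reads, the 5 with most exons, the 5 largest called folds each way and the 3 best-read loci of 1 library, plus neighbouring genes. Loci with printed sequence were chosen after their values were seen. Members and lists were chosen with earlier results of these data known.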

Additional observations from a re-analysis of the deposited data

How the results depend on the processing

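Of the 1722 loci read in both libraries, 659 had at least 2 and 371 at least 3 reads in each, and 647 were found with models of 1 read removed. Overlap by at least 50% of the shorter model gave 1711, overlap of exon bases 1714, and strand ignored 1812. Spliced loci numbered 613, 52 when an identical intron was required in both libraries, 559 when 50% of the reads had to be spliced, and 275 to 405 when either library was left out. Of the 125 read in both, 83 had 50% of their reads on spliced models and 52 an identical intron. Spliced loci held 7.78% to 9.49% of the intergenic reads of single libraries, with reads of their single-exon models included. Downstream loci numbered 1727 within 5000 nt, 644 within 1000 nt, 2496 within 10000 nt, 3478 within 20000 nt, 1177 with protein-coding genes only, and 855 to 1215 with either library left out (855 without replicate 1). Among loci differing between the libraries, 41 became 43 with TMM-scaled totals and with median-ratio size factors, 29 at 20 reads, 42 at 5 reads, 40 with all reads inside the locus and 48 with overlapping models under any name (33 higher in replicate 1, 15 in replicate 2, 32 of them among the 41). The last was chosen after seeing the data. Of the settings run, it alone turned a named locus with a call, chr11:100457022-100461670 (+) to -0.72 and chr2:157547368-157555583 (+) to 0.997 (log2), since the other library's reads there had another name. Without a call under any setting, chr4:124522928-124657169 (-) went from -1.56 to 0.22 under both counts under any name, chr7:28187294-28189073 (-) from 0.03 to -0.03 (TMM) and -0.0097 (median ratio), and chr12:86693599-86695684 (+) from 0.05 to -0.00057 (TMM). At 5 reads, 31 were higher in replicate 1 and 11 in replicate 2. No paired analysis was possible because there is 1 group. Depth limits most loci, since 66.9% rest on 1 read. Without a genome sequence, splice-site bases and A-rich stretches after 3′ ends were not analysed here.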

Other observations

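Intergenic loci on chromosome Y numbered 22, with 26 reads in replicate 1 and 19 in replicate 2, and 7 were read in both libraries although the labels give female animals. The best-read of them, chrY:41592277-41592457 (+), had 7 and 2 reads and was 181 nt long, within the short length class. Chromosome X held 381 loci with 443 and 298 reads, of which 50 were read in both libraries. Scaffolds outside the assembled chromosomes held 22 loci with 91 and 83 reads.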
